A study of Trichoderma reesei with 9 samples.

Results

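The genes described here are those of Trichoderma reesei whose deposited description places them in the cell cycle, DNA replication or the cytoskeleton. They were found by words in the gene description (cyclin, cell cycle, cell division, DNA replication, DNA polymerase, minichromosome, septin, tubulin, actin, myosin, kinesin, dynein, histone H or formin), with protein kinases left out. The words picked 57 of the 10348 genes in the table: 6 under histone, 8 tubulin, 5 myosin, 10 kinesin, 3 dynein, 6 actin, 2 cyclin, 5 cell division, 7 DNA polymerase, 1 DNA replication and 4 under formin. The 4 formin matches are subunits of GDP-forming succinate-CoA ligase, an enzyme of the citric acid cycle caught through the word forming. Without them 53 genes are left. The histone group includes an H3 methyltransferase, the dynein group a midasin-type AAA protein that is only dynein-related, and the myosin group a cofilin/tropomyosin-domain protein. The description of 0 genes held septin or minichromosome, and 7046 genes carry no description beyond predicted protein, so further genes of these processes may lie outside the set.

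The RNA came from mycelia of 3 strains after 96 h of induction on Avicel, a microcrystalline cellulose: Rut-C30 with vps21 deleted (Δvps21), Rut-C30 with vps13 deleted (Δvps13), and Rut-C30 itself, which the labels call wild type. All 3 groups therefore share the Rut-C30 background, which is itself a cellulase-hyperproducing mutant, and each group has 3 libraries. The series asks how the transcriptome differs when either vacuolar protein sorting gene is missing. The labels do not say how many transformants were sampled or whether the replicates grew as cultures of their own. A p below thus sets the difference between groups against the spread of these libraries within groups, and part of that spread may be technical. The spread was estimated over all 3 groups together, so the Δvps13 libraries also enter the p of Δvps21 against the wild type.

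Core histones package newly made DNA, and in most eukaryotes their transcripts accumulate as DNA is replicated. Microtubules are polymers of α- and β-tubulin pairs assembled with the help of tubulin cofactors, and in filamentous fungi they carry long-range transport along the hypha, with kinesins and dynein moving cargo along them in opposite directions. In Aspergillus nidulans and Ustilago maydis early endosomes, the compartment on which Rab5-type GTPases such as Vps21 act, are among those cargoes, while actin and myosin serve the growing tip and septation.

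Library totals ran from 12127372 to 13493219 counts, with 9466 to 9722 genes detected. The Δvps21 and wild-type replicates resembled each other closely, with a mean correlation of log2 CPM across genes of 0.984 to 0.988 within Δvps21 and 0.987 to 0.989 within the wild type. The Δvps13 libraries were less alike, at 0.921 to 0.953, and Δvps13 replicate 3 correlated more with the wild type (0.950) than with its own group (0.921). Differences between Δvps13 and the wild type are therefore also given without Δvps13 replicate 1 and without replicate 3 for the genes described in detail. A gene described as a rab5-like GTPase, TRIREDRAFT_123015, had 2 counts in each Δvps21 library (0.142, 0.161 and 0.170 CPM), against 111, 114 and 135 CPM in Δvps13 and 102, 95.3 and 115 CPM in the wild type. No description named vps13, so that transcript could not be followed.

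Levels of the genes spanned a wide range. Per length, the mean FPKM over the 9 libraries was 1 or more for 56 genes, 10 or more for 34, 100 or more for 11 and 1000 or more for 2, with a median of 17.6 FPKM against 9.69 FPKM over all genes. The most abundant were histone H3 (2303 FPKM) and the H4 gene hh4.1 (1312 FPKM), followed by the other core histones, the kinesin TRIREDRAFT_66486 (308 FPKM) and the first α-tubulin (154 FPKM). Of the 57 genes, 56 had enough counts to be tested. The exception was a kinesin-like gene, TRIREDRAFT_72408, with 4, 3 and 13 counts in Δvps21, 2, 1 and 2 in Δvps13, and 7, 1 and 1 in the wild type.

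In Δvps21 4 of the 5 core histone genes, the first α- and first β-tubulin, tubulin cofactor D and an actin-binding protein were higher than in the wild type, while the second β-tubulin, the most abundant kinesin and the dynein heavy chain were lower. Of the 56 tested genes, 12 were called higher in Δvps21 than in the wild type and 5 lower, that is 21.4% and 8.93%, at an adjusted p of 0.05 from edgeR's quasi-likelihood test over 8906 genes. Over all tested genes 16.7% were called higher and 15.8% lower. The ranges of the 3 libraries did not overlap for 20 genes that lay above the wild type and 9 that lay below, where 30.2% and 31.6% of all tested genes did so. The median log2 difference was 0.17 over these genes and -0.02 over all tested genes. Scaling by library totals alone moved the median of all genes by -0.18 and gave 9 genes higher and 4 lower, beside 872 higher and 1678 lower over all genes, where the TMM-scaled split was 1489 higher and 1408 lower.

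In Δvps13 1 gene was called higher than in the wild type, a myosin, and 3 lower, 2 tubulin cofactors and a succinate-CoA ligase subunit. That is 1.79% and 5.36% of those tested, beside 5.65% and 4.75% of all tested genes, so the share called lower was near the background. Ranges did not overlap for 4 genes above and 6 below the wild type, where the shares over all tested genes were 14.0% and 16.0%, and the median log2 difference was 0.08, against 0.04 over all tested genes. By library totals alone, which moved the median of all genes by -0.30, the counts were 0 higher and 3 lower, beside 173 higher and 1089 lower over all genes (503 and 423 by TMM). At an unadjusted p under 0.05, 7 genes were higher and 3 lower. The only gene called in both strains against the wild type was tubulin cofactor B, and these comparisons share the wild-type libraries.

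**Figure D1:**
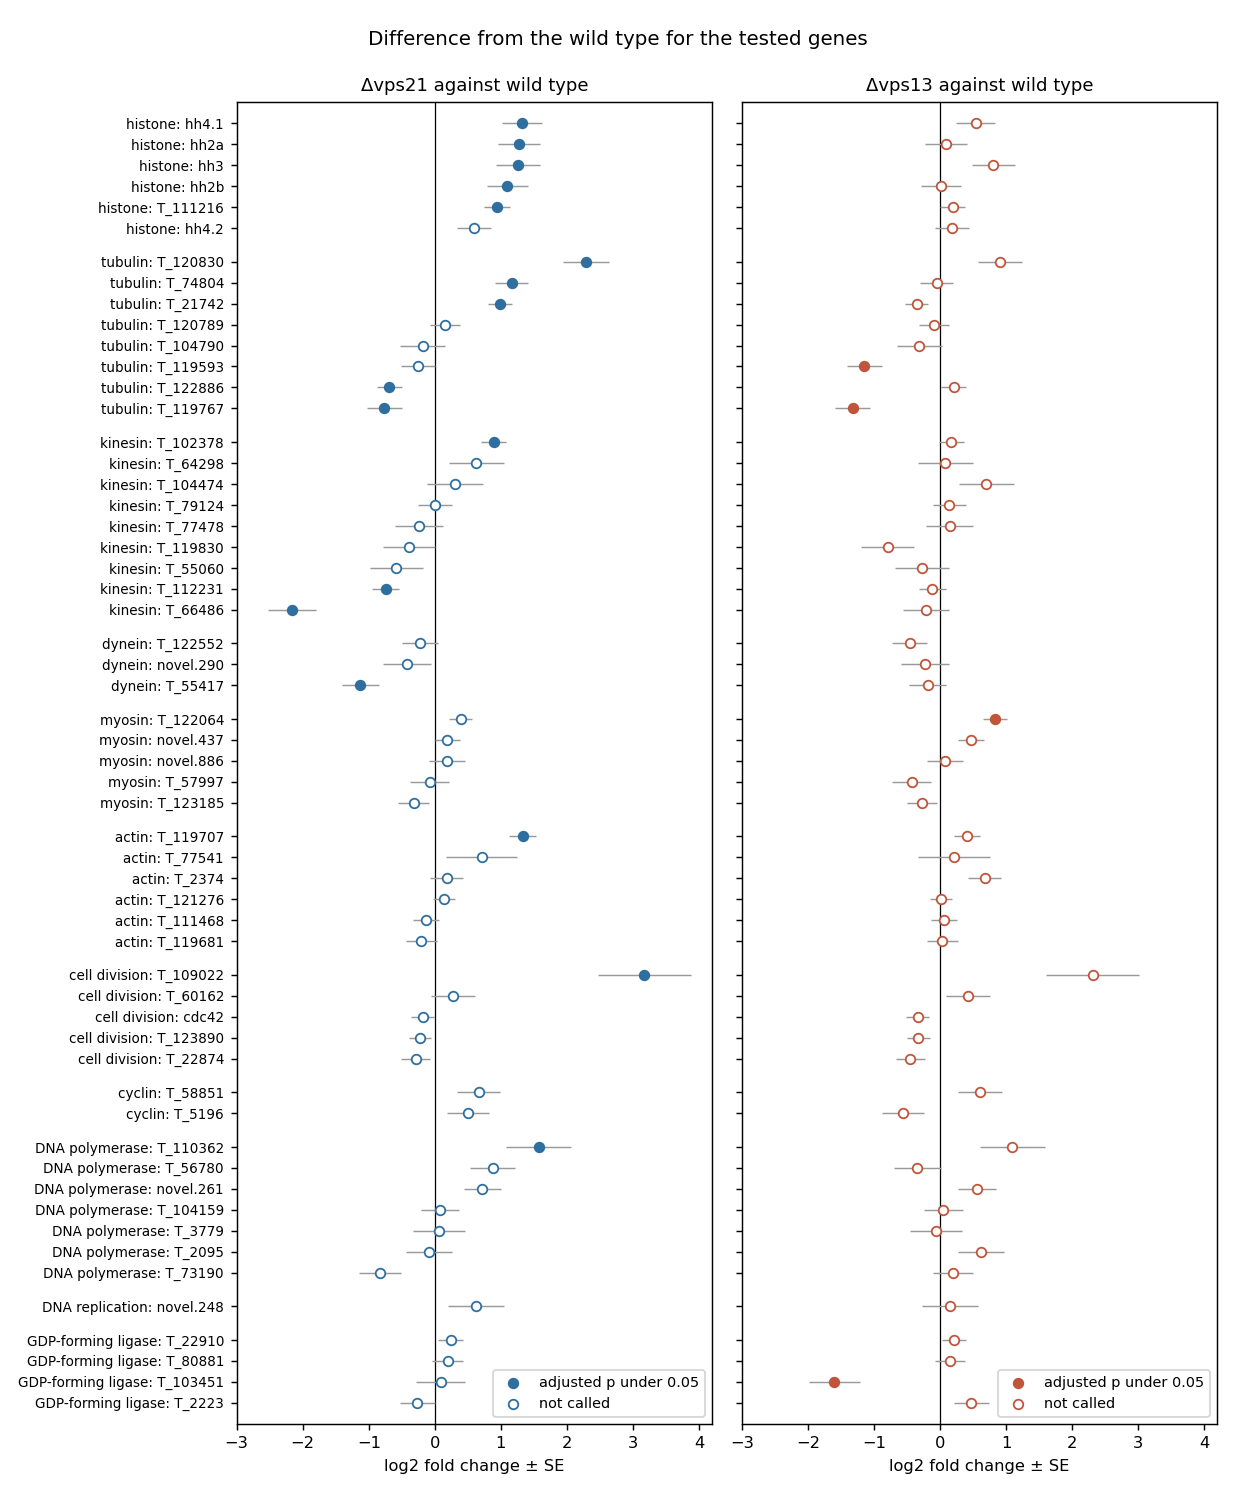
Fitted log2 difference from the wild type (x axis, ± SE) for the 56 tested genes, grouped by role down the page, in Δvps21 on the left and Δvps13 on the right. T_ before a number stands for TRIREDRAFT_, and filled points have an adjusted p under 0.05. In Δvps21, 17 points are filled, from -2.17 for a kinesin to 3.17 for a cell division protein, and in Δvps13 4 are.

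Core histone transcripts were the most abundant of the set and were higher in Δvps21. All 5 genes for core histones had higher values in every Δvps21 library than in any wild-type library, and 4 of them were called. Histone H3 (hh3) had 2048, 2565 and 2744 CPM in Δvps21, 1035, 1990 and 2351 CPM in Δvps13, and 879, 969 and 1224 CPM in the wild type. The Δvps21 libraries stood above all 3 wild-type ones, whereas Δvps13 replicate 1 lay within the wild-type range. The difference was 1.26 ± 0.33 (log2, SE; adjusted p = 0.0149) for Δvps21 and 0.81 ± 0.33 (adjusted p = 0.136) for Δvps13. Without Δvps13 replicate 1 the Δvps13 difference was 1.10 (adjusted p = 0.0101), and without replicate 3 it was 0.58 (adjusted p = 0.167). In bulk RNA, fewer cells that make a transcript and less of it per cell cannot be told apart.

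Histone H4 is encoded by a pair of genes. The more abundant, hh4.1, had 1031, 1318 and 1327 CPM in Δvps21, 432, 814 and 886 CPM in Δvps13, and 574, 413 and 481 CPM in the wild type. All Δvps21 values exceeded those of both other groups, while Δvps13 overlapped the wild type; the difference from the wild type was 1.32 ± 0.30 (adjusted p = 0.00734) for Δvps21. For Δvps13 it was 0.54 ± 0.30 (adjusted p = 0.255), with 0.82 (adjusted p = 0.0257) without replicate 1 and 0.37 (adjusted p = 0.348) without replicate 3. The second gene, hh4.2, had 470, 576 and 498 CPM in Δvps21, 266, 412 and 480 CPM in Δvps13, and 386, 302 and 334 CPM in the wild type. Its Δvps21 libraries also lay above the wild type, by 0.59 ± 0.25 on the log2 scale, but the adjusted p was 0.0934; it was 0.0149 without Δvps13 replicate 1 and 0.035 without Δvps13 replicate 3, with log2 differences of 0.61 in both. Δvps13 differed from the wild type by 0.18 ± 0.25 (adjusted p = 0.671), with 0.41 without replicate 1 and 0.0087 without replicate 3.

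H2A and H2B form the dimers that complete the nucleosome core. The H2A gene hh2a had 674, 849 and 894 CPM in Δvps21, 199, 517 and 350 CPM in Δvps13, and 341, 316 and 344 CPM in the wild type. The H2B gene hh2b had 633, 887 and 899 CPM in Δvps21, 222, 519 and 401 CPM in Δvps13, and 344, 394 and 393 CPM in the wild type. For both, every Δvps21 library was above every library of the other strains, and the Δvps13 libraries ran from below to above the wild type. The log2 differences of Δvps21 from the wild type were 1.27 ± 0.32 for hh2a (adjusted p = 0.011) and 1.10 ± 0.31 for hh2b (adjusted p = 0.019), and those from Δvps13 were 1.18 ± 0.32 (adjusted p = 0.0292) and 1.08 ± 0.31 (adjusted p = 0.0363). For each gene the call against Δvps13 was lost in 7 of 19 alternatives, among them without any 1 of the Δvps21 or wild-type replicates. Δvps13 differed from the wild type by 0.09 ± 0.31 for hh2a (0.41 without replicate 1 and 0.12 without replicate 3) and by 0.01 ± 0.30 for hh2b (0.31 without replicate 1 and -0.0085 without replicate 3), with no call in any of these.

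Together the 5 core histone genes took 0.522%, 0.603% and 0.597% of all counts in Δvps21, 0.261%, 0.357% and 0.312% in Δvps13, and 0.301%, 0.267% and 0.297% in the wild type. Within a library the FPKM of hh2a over hh2b was 1.32 ± 0.07 in Δvps21, 1.21 ± 0.09 in Δvps13 and 1.17 ± 0.12 in the wild type (SD, n = 3 each), with overlapping ranges. H3 relative to H2A did not keep one proportion: the FPKM of hh3 over hh2a was 2.48, 2.47 and 2.51 in Δvps21, 4.25, 3.15 and 5.49 in Δvps13, and 2.11, 2.51 and 2.91 in the wild type. Δvps13 lay above both other strains in that ratio, and Δvps21 lay within the wild-type range. For hh3 over hh4.1 the ratio was 1.61 ± 0.05 in Δvps21, 2.02 ± 0.11 in Δvps13 and 1.73 ± 0.43 in the wild type, with Δvps21 below Δvps13 and both overlapping the wild type. The share of H4 transcript from hh4.1 was 69.6%, 70.5% and 73.5% in Δvps21, 62.9%, 67.3% and 65.8% in Δvps13, and 60.8%, 58.8% and 60.0% in the wild type, so the 3 strains did not overlap in it. These are shares of FPKM, and 3 against 3 libraries cannot give an exact permutation p below 0.1, so they are given without a test. Reads that fit either H4 gene could be split between them in ways the table does not show.

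Of the 5 core histone genes, 4 lie in divergent pairs. On contig NW_006711186.1, hh3 (49632 to 50479, minus strand) and hh4.1 (52109 to 53021, plus strand) are neighbours with 1629 bases between them, and on contig NW_006711155.1, hh2b (49750 to 50743, minus strand) and hh2a (52668 to 53452, plus strand) are 1924 bases apart, by the coordinates of the deposited table. The second H4 gene, hh4.2, lies apart from them on contig NW_006711164.1 (323122 to 324040, minus strand). Both members of both pairs were called higher in Δvps21 than in the wild type.

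A described histone H3 methyltransferase, TRIREDRAFT_111216, had 52.3, 60.2 and 49.9 CPM in Δvps21, 25.6, 35.5 and 35.7 CPM in Δvps13, and 27.4, 27.5 and 29.7 CPM in the wild type. Its Δvps21 values were above all others, by 0.94 ± 0.19 against the wild type (adjusted p = 0.00401) and 0.75 ± 0.19 against Δvps13 (adjusted p = 0.0236) on the log2 scale. Its call against Δvps13 was lost in 5 of 19 alternatives, among them without any 1 of the Δvps21 replicates. Δvps13 was 0.19 ± 0.19 from the wild type (adjusted p = 0.536), with 0.36 without replicate 1 and 0.13 without replicate 3.

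Of these histone calls against the wild type, those for hh4.1 and the methyltransferase had an adjusted p under 0.05 without any single library. Without wild-type replicate 2 the adjusted p was 0.0511 for hh2a, 0.0627 for hh2b and 0.0661 for hh3; without wild-type replicate 1 it was 0.0722 for hh2b and 0.0644 for hh3, without Δvps21 replicate 3 it was 0.0721 for hh2b and 0.0602 for hh3, and for hh2b it was also 0.057 without Δvps21 replicate 2 and 0.0556 without wild-type replicate 3. The summed level of the 4 described hydrophobin genes, coat proteins of aerial hyphae and conidia, was also above the wild type in every Δvps21 library: it was 8969 to 13345 CPM in Δvps21, 1961 to 10820 CPM in Δvps13 and 3571 to 4400 CPM in the wild type. In Δvps13 replicate 3 the hydrophobin sum, 1961 CPM, was below every wild-type library, while the summed core histone FPKM, 6275, was above every wild-type library (3370 to 3958). As a share of all counts the core histones were at 0.312% in that library, against 0.267% to 0.301% in the wild type. The size of that gap thus depended on scaling, with a TMM factor of 0.699 for that library and 1.07 to 1.19 for the wild type. Of the 3 hydrophobin genes that were tested, 1 (TRIREDRAFT_106538) was called higher in each deletion strain than in the wild type. That is 33.3%, beside 16.7% of all tested genes called higher in Δvps21 and 5.65% in Δvps13. It had 1031, 1216 and 1027 CPM in Δvps21, 77.5, 230 and 4.37 CPM in Δvps13, and 7.01, 6.42 and 7.83 CPM in the wild type. Δvps13 replicate 3 thus lay below the wild type. The gene hfb1 had 0 or 1 counts in the Δvps21 libraries, 0 or 4 in Δvps13 and 0 in the wild type. Their part in the histone and tubulin results was not tested.

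**Figure D2:**
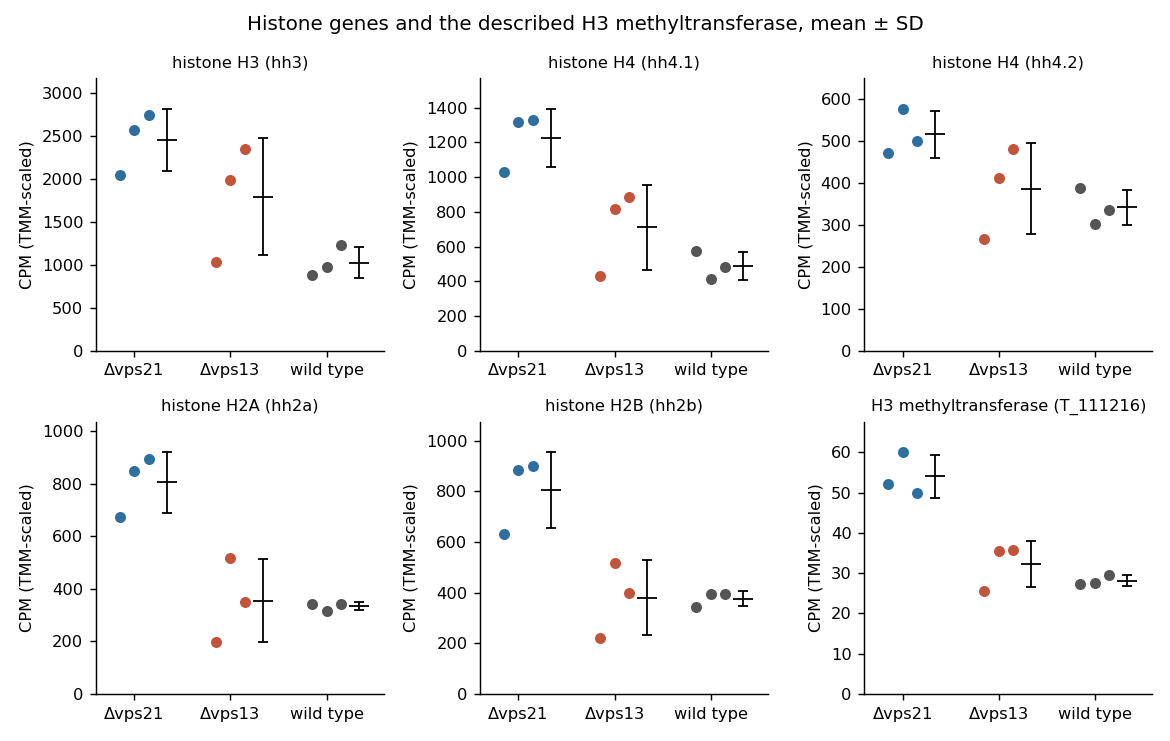
TMM-scaled CPM of the 5 core histone genes and the described H3 methyltransferase (T_111216 stands for TRIREDRAFT_111216), 1 point per library, with the mean ± SD of each group. In all 6 panels the 3 Δvps21 libraries lie above the wild-type ones, as for hh3 with 2048 to 2744 CPM in Δvps21 and 879 to 1224 CPM in the wild type.

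Tubulin isotype shares differed between the strains. In Δvps21 the first α-tubulin was higher without a called change in the second, while both β-tubulins were called, in opposite directions. The first α-tubulin gene, TRIREDRAFT_120830, showed the largest tubulin difference, with 426, 483 and 664 CPM in Δvps21, 100, 261 and 242 CPM in Δvps13, and 101, 102 and 118 CPM in the wild type. Every Δvps21 library was above every other library, and 2 of the 3 Δvps13 libraries were above the wild type while replicate 1 was level with it. The level in Δvps21 was 4.90-fold that of the wild type (log2 2.29 ± 0.35, adjusted p = 8.23e-04) and 2.61-fold that of Δvps13 (1.38 ± 0.34, adjusted p = 0.0191). The Δvps13 difference of 0.91 ± 0.33 was not called (adjusted p = 0.103), and without replicate 1 it was 1.26 (adjusted p = 0.00582) and without replicate 3 0.77 (adjusted p = 0.0795).

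The second α-tubulin, TRIREDRAFT_120789, had 183, 242 and 217 CPM in Δvps21, 136, 189 and 214 CPM in Δvps13, and 161, 212 and 203 CPM in the wild type. All 3 groups overlapped, and the log2 difference of Δvps21 from the wild type was 0.16 ± 0.23 (adjusted p = 0.623). That of Δvps13 was -0.10 ± 0.23 (adjusted p = 0.809), with 0.092 without replicate 1 and -0.22 without replicate 3.

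The β-tubulin pair went in opposite directions in Δvps21. The first, TRIREDRAFT_21742, had 132, 162 and 157 CPM in Δvps21, 57.6, 68.1 and 52.3 CPM in Δvps13, and 73.3, 77 and 77.3 CPM in the wild type. The second, TRIREDRAFT_122886, had 89.7, 96.8 and 98.4 CPM in Δvps21, 207, 152 and 172 CPM in Δvps13, and 152, 165 and 143 CPM in the wild type. In Δvps21 the first was above and the second below every library of the other strains, and in Δvps13 the first lay below the wild type in every library. On the log2 scale Δvps21 differed from the wild type by 0.98 ± 0.18 in the first (adjusted p = 0.0023) and by -0.69 ± 0.19 in the second (adjusted p = 0.0161), and from Δvps13 by 1.34 ± 0.18 (adjusted p = 0.00114) and -0.90 ± 0.19 (adjusted p = 0.00972). Δvps13 itself differed from the wild type by -0.35 ± 0.18 in the first (adjusted p = 0.215) and 0.21 ± 0.19 in the second (adjusted p = 0.485). Without Δvps13 replicate 1 these were -0.31 and 0.10, and without replicate 3 they were -0.26 and 0.24, with no call.

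Because these are ratios within a library, the isotype shares do not depend on scaling between libraries. The first gene made up 69.0%, 65.6% and 74.6% of α-tubulin FPKM in Δvps21, 41.4%, 56.9% and 52.1% in Δvps13, and 37.5%, 31.7% and 35.8% in the wild type, with no overlap between strains. For β-tubulin the first gene's share was 63.9%, 66.7% and 65.7% in Δvps21, 25.1%, 35.0% and 26.8% in Δvps13, and 36.7%, 36.0% and 39.3% in the wild type. Thus the β share lay above the wild type in Δvps21 and below it in Δvps13, while the α share lay above it in both. The summed β-tubulin FPKM overlapped between all strains, at 171 ± 14.8 in Δvps21, 155 ± 15.4 in Δvps13 and 150 ± 6.87 in the wild type (SD, n = 3 each), whereas the summed α-tubulin FPKM was 416 ± 78.4 in Δvps21, 216 ± 70.4 in Δvps13 and 169 ± 20.5 in the wild type. As a result the ratio of α to β transcript was 2.42 ± 0.31 in Δvps21, 1.44 ± 0.57 in Δvps13 and 1.12 ± 0.12 in the wild type, and only the Δvps21 range was apart from the others. Reads shared by the members of an isotype pair could have been counted for either or left out, which the deposited table does not record.

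The γ-tubulin gene, TRIREDRAFT_104790, whose product nucleates microtubules, was expressed at 5.28 FPKM on average and was not called in any comparison (log2 -0.19 ± 0.34 in Δvps21 and -0.31 ± 0.34 in Δvps13 against the wild type; adjusted p = 0.708 and 0.569); the Δvps13 value was -0.80 (adjusted p = 0.0789) without replicate 1 and -0.029 (adjusted p = 0.946) without replicate 3. Of the tubulin calls against the wild type, that of the second β-tubulin in Δvps21 was lost without Δvps21 replicate 1 (adjusted p = 0.0771), Δvps21 replicate 3 (0.0572) or wild-type replicate 2 (0.0709), and those of the first α- and first β-tubulin were kept without any single library.

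**Figure D3:**
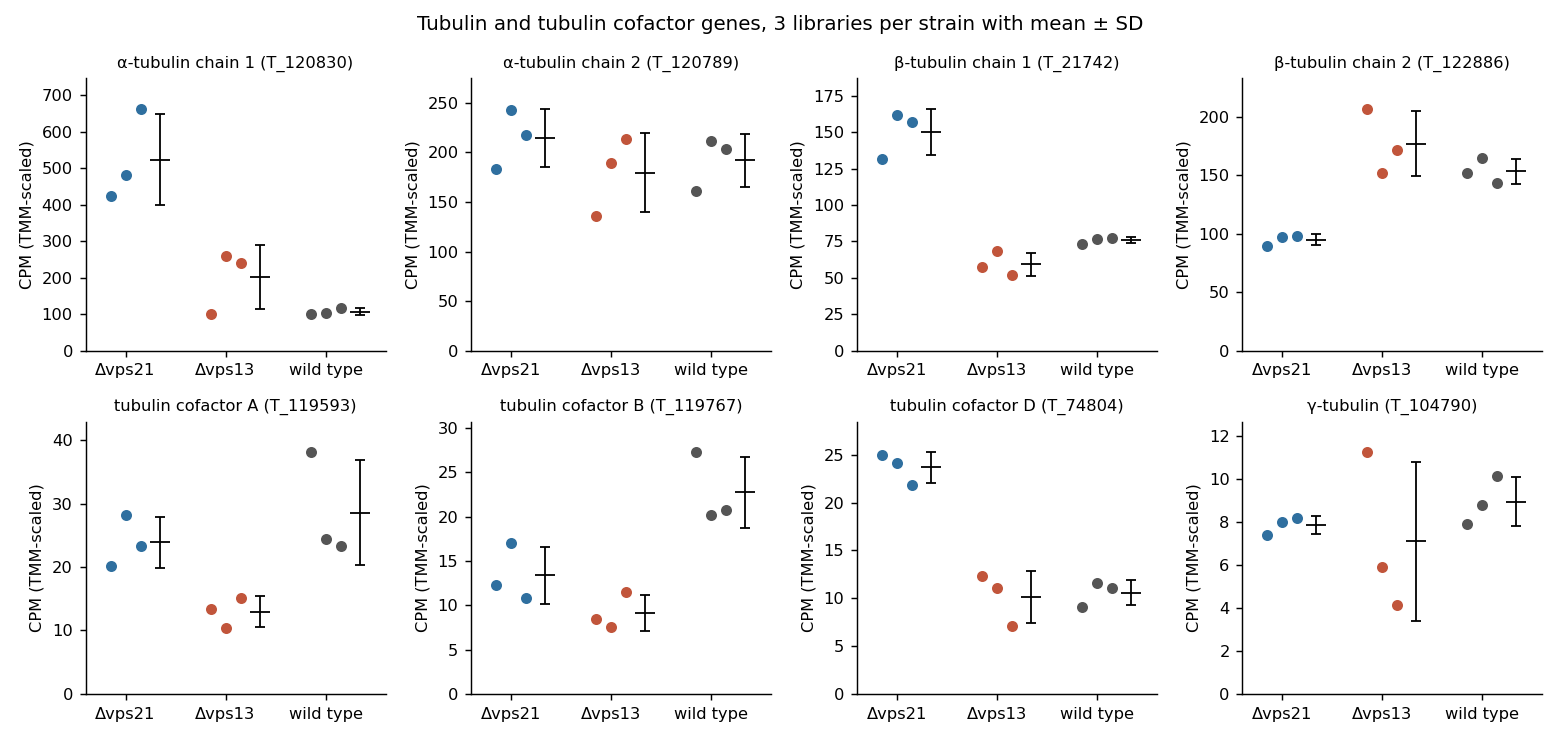
TMM-scaled CPM of tubulin and tubulin cofactor genes, 1 point per library, with the mean ± SD of each group (T_ before a number stands for TRIREDRAFT_). The first α-tubulin runs from 426 to 664 CPM in Δvps21, 100 to 261 CPM in Δvps13 and 101 to 118 CPM in the wild type, and the β-tubulin pair moves in opposite directions in Δvps21.

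The cofactors that fold and pair tubulin differed between the strains in another way. Cofactor B, TRIREDRAFT_119767, which binds α-tubulin, had 12.2, 17 and 10.9 CPM in Δvps21, 8.48, 7.5 and 11.4 CPM in Δvps13, and 27.3, 20.2 and 20.7 CPM in the wild type. Both deletion strains lay below the wild type in every library, with log2 differences of -0.77 ± 0.26 in Δvps21 (adjusted p = 0.0429) and -1.32 ± 0.27 in Δvps13 (adjusted p = 0.0131). Cofactor A, TRIREDRAFT_119593, a β-tubulin chaperone, had 20.2, 28.2 and 23.3 CPM in Δvps21, 13.4, 10.3 and 15.1 CPM in Δvps13, and 38.2, 24.4 and 23.3 CPM in the wild type. Only Δvps13 was apart from the wild type here, by -1.15 ± 0.26 (adjusted p = 0.0207), and Δvps21 was 0.89 ± 0.26 above Δvps13 (adjusted p = 0.042). The call between the deletion strains was lost in 10 of 19 alternatives. Cofactor D, TRIREDRAFT_74804, which also takes up β-tubulin, had 25, 24.1 and 21.9 CPM in Δvps21, 12.3, 11.1 and 7.08 CPM in Δvps13, and 9.1, 11.6 and 11.1 CPM in the wild type. Its Δvps21 values were all above those of both other strains, by 1.16 ± 0.25 against the wild type (adjusted p = 0.00498) and 1.21 ± 0.25 against Δvps13 (adjusted p = 0.00886). Δvps13 was -0.05 ± 0.25 from the wild type (adjusted p = 0.909), with -0.18 without replicate 1 and 0.16 without replicate 3.

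Calls of the cofactor falls were lost in some fits that left out 1 library, though the direction of each fall held. The fall of cofactor B in Δvps21 had an adjusted p of 0.142 without Δvps21 replicate 1, 0.167 without Δvps21 replicate 3, and 0.159, 0.0779 and 0.0856 without wild-type replicates 1, 2 and 3; its fall in Δvps13 had 0.0606 and 0.0524 without wild-type replicates 1 and 2. For cofactor A the fall in Δvps13 had 0.0724 without Δvps13 replicate 2 and 0.0895 and 0.0657 without wild-type replicates 1 and 2. Without wild-type replicate 2 the Δvps13 falls were larger than with all libraries, at -1.40 for cofactor B and -1.25 for cofactor A. Without wild-type replicate 1 they were smaller, at -1.15 and -0.87. Cofactor B in Δvps21 was at -0.60, -0.84 and -0.80 without wild-type replicates 1, 2 and 3. Calls over all genes in Δvps13 were 282 and 165 without wild-type replicates 1 and 2, against 926 with all libraries. Without Δvps13 replicate 3 both falls in Δvps13 were kept, at log2 -1.49 (adjusted p = 0.00112) for cofactor B and -1.25 (adjusted p = 0.00338) for cofactor A, and without Δvps13 replicate 1 they were -1.25 (adjusted p = 0.0189) and -1.15 (adjusted p = 0.0251). By library totals alone the rise of cofactor D in Δvps21 had an adjusted p of 0.0627.

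**Figure D4:**
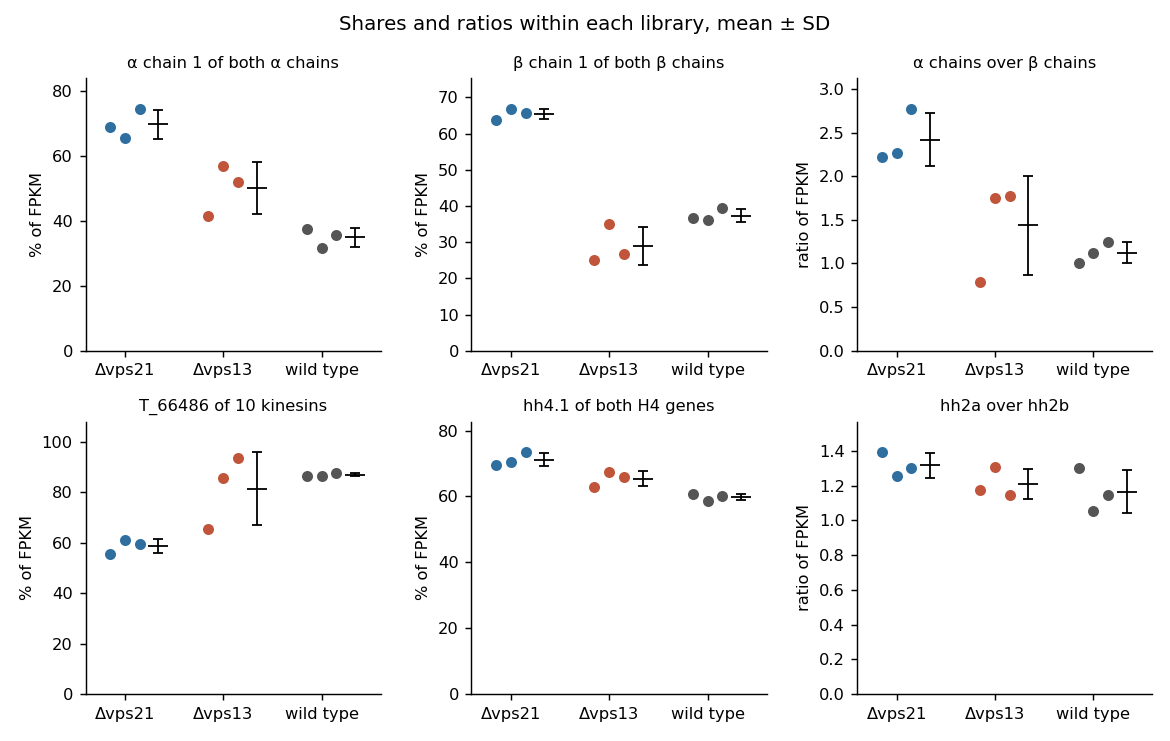
Shares and ratios of FPKM computed within each library, 1 point per library, with the mean ± SD of each group (T_66486 stands for the kinesin TRIREDRAFT_66486). The first β-tubulin's share is 63.9% to 66.7% in Δvps21, 25.1% to 35.0% in Δvps13 and 36.0% to 39.3% in the wild type, whereas the ratio of hh2a to hh2b overlaps between the strains.

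Among the motors, the dominant kinesin and the dynein heavy chain were both lower in Δvps21. The kinesin TRIREDRAFT_66486 had 232, 262 and 243 CPM in Δvps21, 434, 1070 and 1359 CPM in Δvps13, and 1028, 1197 and 1081 CPM in the wild type. Δvps21 was below every other library, and Δvps13 replicate 1 lay far below the other Δvps13 libraries, which straddled the wild type. The Δvps21 level was 4.49-fold lower than the wild type (log2 -2.17 ± 0.37, adjusted p = 0.0015) and 3.89-fold lower than Δvps13 (log2 -1.96 ± 0.36, adjusted p = 0.00572). Against the wild type Δvps13 differed by -0.21 ± 0.35 (adjusted p = 0.726), with -0.54 without replicate 3 and 0.16 without replicate 1, so its direction turned on single libraries.

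TRIREDRAFT_66486 supplied most of the kinesin transcript. Its share of the FPKM of all 10 kinesin genes was 55.6%, 61.1% and 59.4% in Δvps21, 65.3%, 85.7% and 93.5% in Δvps13, and 86.6%, 86.6% and 87.7% in the wild type. The other 9 kinesins together had 69.6 ± 4.38 FPKM in Δvps21, 68.1 ± 28.1 FPKM in Δvps13 and 65.8 ± 6.87 FPKM in the wild type (SD, n = 3 each), with overlapping ranges.

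Among those other kinesins, 2 were called against the wild type, in opposite directions. TRIREDRAFT_102378 had 44.2, 45.2 and 45.6 CPM in Δvps21, 28.5, 31.4 and 22.1 CPM in Δvps13, and 23.3, 26.9 and 22.7 CPM in the wild type. TRIREDRAFT_112231 had 34.8, 33 and 28.8 CPM in Δvps21, 57.6, 53.4 and 38.1 CPM in Δvps13, and 50.4, 61.5 and 49.8 CPM in the wild type. The first was above and the second below all other libraries in Δvps21, by 0.89 ± 0.19 (adjusted p = 0.00537) and -0.74 ± 0.20 (adjusted p = 0.018) against the wild type on the log2 scale. The call for TRIREDRAFT_112231 was lost without Δvps21 replicate 1 (adjusted p = 0.0516) or 3 (0.0862) and without wild-type replicate 2 (0.084) or 3 (0.051), and by library totals alone the adjusted p was 0.0561 for it and 0.0946 for TRIREDRAFT_102378. The remaining 6 tested kinesins, at 1.63 to 18.7 FPKM, had log2 differences from -0.58 to 0.63 in Δvps21 and from -0.79 to 0.70 in Δvps13, none of them called. Against the wild type, Δvps13 differed by 0.17 ± 0.19 in TRIREDRAFT_102378 (0.17 without replicate 1 and 0.32 without replicate 3) and by -0.12 ± 0.20 in TRIREDRAFT_112231 (-0.21 without replicate 1 and 0.059 without replicate 3), with no call.

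Dynein is the motor that carries cargo back towards microtubule minus ends. Its heavy chain gene, TRIREDRAFT_55417, had 226, 223 and 223 CPM in Δvps21, 263, 609 and 418 CPM in Δvps13, and 486, 502 and 482 CPM in the wild type. The Δvps21 libraries were nearly identical and below all others, while Δvps13 ran from near the Δvps21 level in replicate 1 to above the wild type in replicate 2. The log2 difference of Δvps21 was -1.13 ± 0.28 against the wild type (adjusted p = 0.0109) and -0.94 ± 0.28 against Δvps13 (adjusted p = 0.0436). For Δvps13 against the wild type it was -0.19 ± 0.28 (adjusted p = 0.687), with 0.10 without replicate 1, -0.52 without replicate 2 and -0.15 without replicate 3. The call against Δvps13 was lost in 13 of 19 alternatives, among them without any 1 of the Δvps21 replicates (adjusted p = 0.122, 0.121 and 0.147) or wild-type replicates (0.0719, 0.0745 and 0.0758), without Δvps13 replicate 2 (0.123) and by library totals alone (0.0595). A dynein light chain, TRIREDRAFT_122552, was not called in Δvps21 (-0.22 ± 0.27, adjusted p = 0.561) or Δvps13 (-0.46 ± 0.27, adjusted p = 0.282), though the Δvps13 difference was -0.74 (adjusted p = 0.0266) without replicate 3 and -0.23 (adjusted p = 0.571) without replicate 1. Within a library the FPKM of TRIREDRAFT_66486 over that of the dynein heavy chain was 5.81 ± 0.38 in Δvps21, 11.7 ± 4.75 in Δvps13 and 11.9 ± 0.71 in the wild type (SD, n = 3 each), with Δvps21 below both.

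Myosins are the actin-based motors. The myosin gene TRIREDRAFT_122064 had 191, 156 and 185 CPM in Δvps21, 230, 257 and 237 CPM in Δvps13, and 133, 136 and 138 CPM in the wild type. The 3 strains did not overlap, with Δvps13 highest and the wild type lowest. Δvps13 was 0.83 ± 0.18 above the wild type (adjusted p = 0.0175), whereas the Δvps21 difference of 0.39 ± 0.18 was not called (adjusted p = 0.119) and nor was the difference of Δvps21 from Δvps13 (-0.44 ± 0.18, adjusted p = 0.12). The Δvps13 difference was 0.89 (adjusted p = 0.0107) without Δvps13 replicate 1 and 0.86 (adjusted p = 0.00384) without replicate 3, but its adjusted p was 0.0746, 0.0905 and 0.0733 without wild-type replicates 1, 2 and 3 and 0.153 by library totals alone. Of the other 4 genes in the myosin group none was called, among them the cofilin/tropomyosin-domain gene TRIREDRAFT_57997, with log2 differences of -0.08 ± 0.29 in Δvps21 and -0.43 ± 0.30 in Δvps13.

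**Figure D5:**
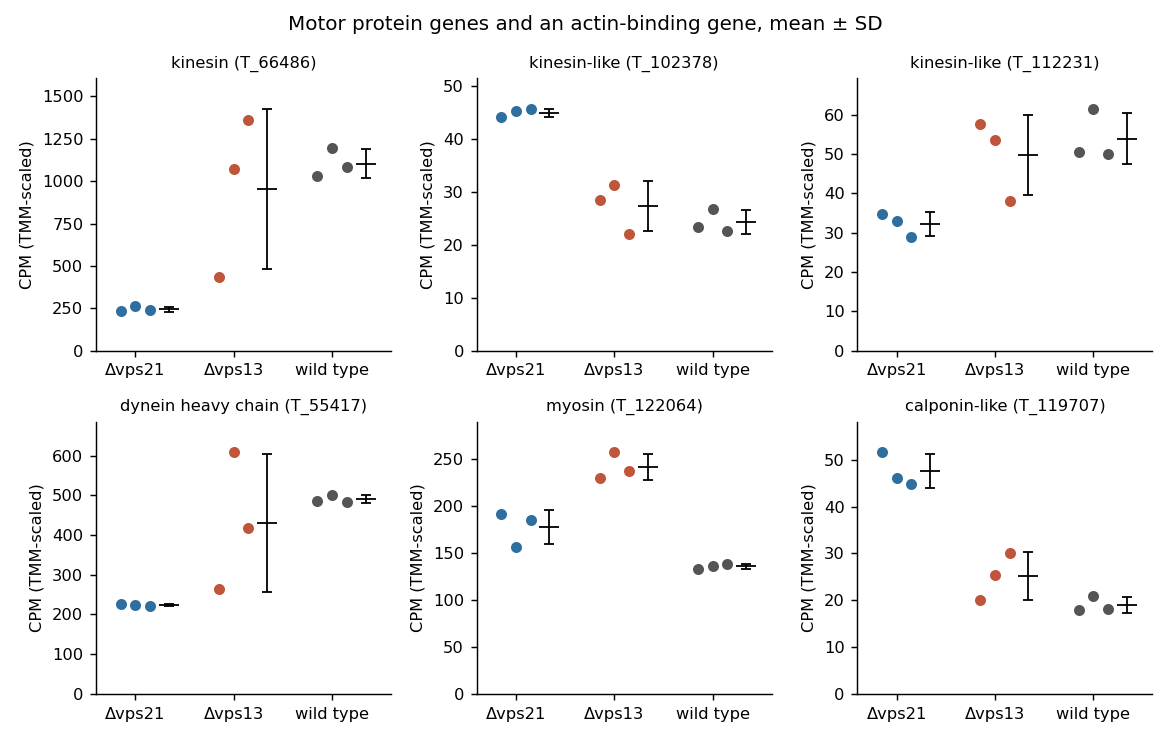
TMM-scaled CPM of 3 kinesin genes, the dynein heavy chain, a myosin and the calponin-like actin-binding gene, 1 point per library, with the mean ± SD of each group (T_ before a number stands for TRIREDRAFT_). For the kinesin T_66486 the Δvps21 libraries lie between 232 and 262 CPM and the wild-type ones between 1028 and 1197 CPM, with Δvps13 spread from 434 to 1359 CPM.

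Of 6 genes for actin-related proteins 1 was called in Δvps21 against the wild type, which is 16.7%, the same as the 16.7% called higher over all tested genes. The calponin-like actin-binding gene TRIREDRAFT_119707 had 51.7, 46.2 and 44.8 CPM in Δvps21, 20, 25.5 and 30.1 CPM in Δvps13, and 17.8, 20.9 and 18.1 CPM in the wild type. Δvps21 was above all other libraries, and Δvps13 overlapped the wild type. The log2 difference of Δvps21 was 1.33 ± 0.20 against the wild type (adjusted p = 8.66e-04) and 0.92 ± 0.20 against Δvps13 (adjusted p = 0.0122). Δvps13 was 0.41 ± 0.20 from the wild type (adjusted p = 0.204), with 0.58 (adjusted p = 0.0631) without replicate 1 and 0.28 (adjusted p = 0.276) without replicate 3. The most abundant of the group, an actin-like gene (TRIREDRAFT_111468, 67.9 FPKM), was not called, with -0.14 ± 0.20 in Δvps21 (adjusted p = 0.624) and 0.06 ± 0.20 in Δvps13 (adjusted p = 0.867) against the wild type. A transmembrane actin-binding-like gene, TRIREDRAFT_121276, differed by 0.14 ± 0.17 in Δvps21 and 0.02 ± 0.17 in Δvps13, also without a call, and the other 3 lay between -0.20 and 0.71 in Δvps21.

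The small GTPase gene cdc42, a regulator of polarised growth whose description reads as a cell division control protein, had 107, 125 and 102 CPM in Δvps21, 94, 108 and 100 CPM in Δvps13, and 136, 125 and 118 CPM in the wild type. Δvps13 lay below the wild type in every library by -0.33 ± 0.17 (adjusted p = 0.228) and Δvps21 overlapped it at -0.19 ± 0.17 (adjusted p = 0.44), so neither was called. The Δvps13 value was -0.26 without replicate 1 and -0.31 without replicate 3. A cell division/GTP binding gene, TRIREDRAFT_22874, was likewise not called, with -0.29 ± 0.22 in Δvps21 and -0.45 ± 0.22 in Δvps13.

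The cell division protein gene TRIREDRAFT_109022 had the largest fitted change of the whole set but low counts: 62, 52 and 62 in Δvps21, 53, 43 and 2 in Δvps13, and 8, 10 and 4 in the wild type. Δvps21 was above the wild type in every library, while Δvps13 replicate 3 was at or below the wild-type counts. The log2 difference was 3.17 ± 0.70 in Δvps21 (adjusted p = 0.00626) and 2.31 ± 0.71 in Δvps13 (adjusted p = 0.0594), and without Δvps13 replicate 3 the Δvps13 value was 2.82 (adjusted p = 3.27e-04), against 2.08 (adjusted p = 0.0993) without replicate 1.

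Cyclins are regulators that pair with the kinases of the cell cycle, and neither of the 2 cyclin matches was called against the wild type. The cyclin gene TRIREDRAFT_5196 had 15.6, 10.2 and 15.7 CPM in Δvps21, 5.93, 9.7 and 4.13 CPM in Δvps13, and 8.97, 9.98 and 10.4 CPM in the wild type. Δvps21 was above Δvps13 in every library, by 1.06 ± 0.32 (adjusted p = 0.0476), but overlapped the wild type (0.50 ± 0.32, adjusted p = 0.249). The call against Δvps13 was lost in 11 of 19 alternatives. Δvps13 differed from the wild type by -0.56 ± 0.32 (adjusted p = 0.269), with -0.45 without replicate 1 and -0.32 without replicate 3. A gene with cyclin F-box and Jumonji domains, TRIREDRAFT_58851, had 7.25, 3.96 and 6.53 CPM in Δvps21, 7.08, 5.56 and 4.37 CPM in Δvps13, and 4.30, 3.07 and 3.84 CPM in the wild type. Every Δvps13 library was above the wild type, and Δvps21 overlapped it. The log2 differences were 0.66 ± 0.33 in Δvps21 (adjusted p = 0.144) and 0.61 ± 0.33 in Δvps13 (adjusted p = 0.245), and the Δvps13 value was 0.44 without replicate 1 and 0.78 (adjusted p = 0.0728) without replicate 3. In a fit of Δvps21 and the wild type alone both cyclin genes were called higher in Δvps21, with adjusted p of 0.0464 for TRIREDRAFT_5196 and 0.0484 for TRIREDRAFT_58851. That fit called many more genes of every kind, 4889 with 2512 of them higher, against 2897 and 1489 with all libraries.

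The DNA polymerases that copy the nuclear genome showed no call against the wild type. The catalytic subunit of polymerase δ, TRIREDRAFT_2095, differed by -0.09 ± 0.35 in Δvps21 (adjusted p = 0.864) and 0.62 ± 0.34 in Δvps13 (adjusted p = 0.259), with 0.95 (adjusted p = 0.0094) in Δvps13 without its replicate 3 and 0.19 (adjusted p = 0.714) without its replicate 1. The catalytic subunit of polymerase ε, TRIREDRAFT_3779, at 1.20 FPKM, differed by 0.06 ± 0.39 in Δvps21 and -0.05 ± 0.39 in Δvps13 (-0.27 without replicate 1 and 0.32 without replicate 3). The SEs of 0.35 and 0.39 leave room for sizeable differences in both.

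Polymerase γ replicates mitochondrial DNA. Its gene, TRIREDRAFT_110362, had 28.6, 18.3 and 27.8 CPM in Δvps21, 25.8, 23 and 4.37 CPM in Δvps13, and 9.67, 7.68 and 7.68 CPM in the wild type. All Δvps21 libraries were above the wild type, as were 2 of 3 Δvps13 libraries, with Δvps13 replicate 3 below it. The log2 difference was 1.57 ± 0.49 in Δvps21 (adjusted p = 0.0302) and 1.10 ± 0.49 in Δvps13 (adjusted p = 0.166); without Δvps13 replicate 3 the Δvps13 difference was 1.56 (adjusted p = 4.71e-04), and without replicate 1 it was 0.77 (adjusted p = 0.336). The Δvps21 call was lost without Δvps21 replicate 1 (adjusted p = 0.0886) or 3 (0.0921), without any 1 of the wild-type replicates (0.072, 0.1 and 0.092) and by library totals alone (0.105).

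A gene described only as DNA polymerase, TRIREDRAFT_56780, was 1.22 ± 0.35 higher in Δvps21 than in Δvps13 (adjusted p = 0.0383) and 0.87 ± 0.34 above the wild type without a call (adjusted p = 0.0707). Its call against Δvps13 was lost in 9 of 18 alternatives. The catalytic subunit of polymerase ζ, which copies across damaged DNA, TRIREDRAFT_73190, was lower in Δvps21 than in Δvps13, at -1.03 ± 0.31 (adjusted p = 0.0487), with -0.83 ± 0.31 against the wild type (adjusted p = 0.0619). For this gene the call against Δvps13 was lost in 13 of 18 alternatives. A further ζ subunit gene, TRIREDRAFT_104159, the most abundant of the 7 polymerase genes at 8.59 FPKM, and 2 additional gene models, with domains of telomerase reverse transcriptase and of the Dna2 replication factor, were not called in any comparison.

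Of the succinate-CoA ligase genes that only share letters with formin, 1 of 4 changed. The β-subunit gene TRIREDRAFT_103451 had 29.8, 52.7 and 37.9 CPM in Δvps21, 5.42, 12.3 and 20 CPM in Δvps13, and 37.1, 37.2 and 38.8 CPM in the wild type. Δvps13 was below every library of the other strains, while Δvps21 overlapped the wild type. The log2 difference was -1.60 ± 0.39 for Δvps13 against the wild type (adjusted p = 0.0261) and 1.69 ± 0.39 for Δvps21 against Δvps13 (adjusted p = 0.0149). The Δvps13 call was lost without Δvps13 replicate 2 (adjusted p = 0.0801) and without any 1 of the wild-type replicates (0.082, 0.0908 and 0.0833), and the difference was -1.21 (adjusted p = 0.0188) without Δvps13 replicate 1 and -2.09 (adjusted p = 5.35e-04) without replicate 3.

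The members called in Δvps13 depended on which of its libraries were included. Without Δvps13 replicate 3, 7 genes were called higher than in the wild type and 5 lower, including all 4 called with it, and over all genes 3233 were called, against 926 with it. The genes added were the cell division protein TRIREDRAFT_109022, polymerases γ and δ and, outside the set chosen for naming, an actin-like gene (TRIREDRAFT_2374, 0.92, adjusted p = 0.0032), a kinesin-like gene (TRIREDRAFT_104474, 1.09, adjusted p = 0.0111) and an additional gene model with a myosin-like coiled coil. The dynein light chain and the midasin-type model were the added falls. Without Δvps13 replicate 1, 4 genes were higher and 3 lower, the additions being hh3, hh4.1 and the first α-tubulin, so, among the alternatives run, the histone and α-tubulin calls in Δvps13 appeared only when replicate 1 was left out. Without wild-type replicate 1 or 2 no member was called in Δvps13 in either direction, without wild-type replicate 3 0 were higher and 2 lower, and without Δvps13 replicate 2 1 was higher and 1 lower. Calls over all genes were 282, 165 and 256 without wild-type replicates 1, 2 and 3. They were 1130 without Δvps13 replicate 1 and 491 without Δvps13 replicate 2.

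Set directly against Δvps13, Δvps21 had 12 of the 56 genes called higher and 4 lower (21.4% and 7.14%), beside 7.68% and 7.55% of all tested genes. Ranges did not overlap for 14 genes above and 6 below, where 16.2% and 14.8% of all tested genes did so. The median log2 difference was 0.14 against -0.05 over all tested genes. Of the genes called higher, 8 were also called higher than the wild type: hh2a, hh2b, the H3 methyltransferase, the first α- and first β-tubulin, cofactor D, the kinesin-like TRIREDRAFT_102378 and the calponin-like gene. The second β-tubulin, TRIREDRAFT_66486 and the dynein heavy chain were called lower in both, and both comparisons share the Δvps21 libraries. Cofactor A, the cyclin TRIREDRAFT_5196, the polymerase genes TRIREDRAFT_56780 and TRIREDRAFT_73190 and the ligase subunit were the 5 called against Δvps13 but not against the wild type.

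Many of these calls between the deletion strains depended on the libraries included. Of the 16, the 3 for the first β-tubulin, TRIREDRAFT_66486 and cofactor D were kept under every alternative run. Without Δvps21 replicate 1, 2 or 3 the counts were 4 higher and 2 lower, 4 and 2, and 3 and 2. Without Δvps13 replicate 1, 2 or 3 they were 11 and 4, 10 and 3, and 13 and 8. Without wild-type replicate 1, 2 or 3 they were 8 and 2, 6 and 2, and 6 and 2. Calls over all genes, in the same order, were 744, 770 and 514, then 1865, 1285 and 2216, then 1045, 983 and 983. With all libraries 1356 genes were called. By library totals alone, which moved the median of all genes by 0.12, 10 genes were higher and 1 lower, beside 691 higher and 395 lower over all genes (684 and 672 by TMM).

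Related genes outside the word rule were listed by description and not by how they moved. Of 23 tested genes for DNA synthesis and repair, 0 were called higher and 4 lower in Δvps21 than in the wild type, and 0 in either direction in Δvps13 (edgeR; 0 higher and 3 lower at an unadjusted p under 0.05). The 17.4% called lower in Δvps21 was near the 15.8% of all tested genes. The 4 in Δvps21 were a replication factor C subunit 1-like gene (TRIREDRAFT_25225, log2 -0.88, adjusted p = 0.026), a DNA topoisomerase (TRIREDRAFT_57488, -1.01, adjusted p = 0.0111) and 2 mismatch repair genes (TRIREDRAFT_58370, -1.12, adjusted p = 0.04; TRIREDRAFT_56515, -2.10, adjusted p = 0.0457). The sliding clamp gene for proliferating cell nuclear antigen, TRIREDRAFT_120486, had 50.4, 66.7 and 54.8 CPM in Δvps21, 26.5, 55.3 and 40.5 CPM in Δvps13, and 69.6, 74.5 and 73.0 CPM in the wild type. It lay below the wild type in every library of both deletion strains but was not called, at -0.34 (adjusted p = 0.323) in Δvps21 and -0.83 (adjusted p = 0.0579) in Δvps13. The large subunit of ribonucleotide reductase, TRIREDRAFT_74047, which makes deoxynucleotides, was not called either, at 0.41 (adjusted p = 0.29) in Δvps21.

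Of 12 actin and polarity regulators, 2 were called higher and 1 lower in Δvps21 than in the wild type and 0 in Δvps13 (edgeR; 1 higher and 0 lower at an unadjusted p under 0.05). These are 16.7% and 8.33%, beside 16.7% and 15.8% of all tested genes. A GTPase of the Rho2 subfamily, TRIREDRAFT_21294, had 283, 258 and 345 CPM in Δvps21, 190, 201 and 202 CPM in Δvps13, and 131, 119 and 128 CPM in the wild type. The 3 strains did not overlap in it, with log2 differences of 1.23 (adjusted p = 9.9e-04) in Δvps21 and 0.65 (adjusted p = 0.0513) in Δvps13. Of 4 chromatin genes, 1 was called higher and 1 lower in Δvps21 than in the wild type, 25% each, beside the same 16.7% and 15.8%. A histone acetyltransferase (TRIREDRAFT_64680) was higher by 1.70 (adjusted p = 5.32e-04) and a histone deacetylase (TRIREDRAFT_80797) lower, at -0.64 (adjusted p = 0.026). An NAD-dependent histone deacetylase (TRIREDRAFT_120404) was at -0.02 (adjusted p = 0.973) in Δvps21 and 1.25 (adjusted p = 0.0531) in Δvps13. It was called lower in Δvps21 than in Δvps13, at -1.26 (adjusted p = 0.0402). In Δvps13 0 of the 4 were called against the wild type by edgeR, with 2 higher and 1 lower at an unadjusted p under 0.05.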

How the data were processed

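The deposited table held whole-number counts per gene, made by the authors, in 9 libraries, and a companion table of FPKM values deposited by the authors, which equal those counts divided by gene length and 1 factor per library and so are not independent of them. The submitters' processing notes name HISAT2 2.0.5 and featureCounts 1.5.0-p3. Which build was used is not given in the sources used here. The labels' protocols describe poly-A RNA and name no strand-marking step, so counts of antisense or near-identical genes are uncertain. By position, no gene of the set overlaps another in the table.

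Counts were filtered with edgeR filterByExpr (minimum count 10), which kept 8906 genes, scaled by TMM and fitted by edgeR's quasi-likelihood test over all 9 libraries with 1 mean per group (residual degrees of freedom 6, common BCV 0.287). Adjusted p is Benjamini-Hochberg over all tested genes, called at 0.05. CPM in the text are TMM-scaled, log2 differences are from this fit with SE, and FPKM were used for levels and shares within a library. The same script was tested on simulated data. Versions were DESeq2 1.42.0, edgeR 4.0.16 and limma 3.58.1 under R 4.3.3.

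Genes and lists were chosen with earlier results of these data known. Genes named are those called in at least 1 comparison, 3 marker genes (TRIREDRAFT_120830, TRIREDRAFT_21742 and TRIREDRAFT_66486) and the 2 most abundant of each role, 36 in all; hh4.2, γ-tubulin, polymerase ε, and the genes called only without Δvps13 replicate 3 were added after their values were seen. A list for cell cycle kinases and checkpoint genes matched 0 genes, and 1 for chromosome segregation matched 2, neither called in any comparison by edgeR (0 at an unadjusted p under 0.05). RefSeq's QM6a v2.0 table holds 52 of the 57 identifiers; the other 5 are additional models. Alternatives were DESeq2, limma on log2(FPKM + 1) and log2(FPKM + 0.1), median-ratio size factors, library totals only, no filter, 10 CPM in 3 libraries, the 2 groups alone, an absolute log2 of 1 or more, the replicate number as a block, and each library left out in turn; they were run for the members, not for the related genes outside the rule.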

Additional observations from a re-analysis of the deposited data

How the results depend on the processing

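Over 2202 recomputed values of named genes, 1951 kept their direction and their side of the 0.05 threshold, 149 lost a call, 35 gained one and 67 changed sign; none of those that changed sign was a call of the original fit. Of the calls against the wild type, 6 of 17 in Δvps21 were kept under every alternative that tested the gene. These were hh4.1, TRIREDRAFT_109022, TRIREDRAFT_119707, TRIREDRAFT_120830, TRIREDRAFT_55417 and TRIREDRAFT_66486. Of them, TRIREDRAFT_109022 was not tested under the filter of 10 CPM in 3 libraries. With the fold threshold set aside 8 were kept, adding TRIREDRAFT_21742 and TRIREDRAFT_111216. In Δvps13 0 of 4 were kept, with or without that threshold. The causes were not tested, and fits that leave libraries out also have fewer samples. Precision is limited by 3 libraries a group, by the spread among Δvps13 libraries, and by low counts for genes such as TRIREDRAFT_109022.

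With the 2 groups alone, calls against the wild type were 298 over all genes with 0 members higher and 1 lower in Δvps13, and 4889 with 21 higher and 8 lower in Δvps21; between Δvps21 and Δvps13 they were 612 with 2 higher and 2 lower. DESeq2 called 1586 genes in Δvps13 against the wild type, with 2 members higher, and an absolute log2 of 1 or more left 0 members higher in Δvps13 and 2 lower in Δvps21 against the wild type, and 2 lower in Δvps21 against Δvps13. Over all genes that threshold left 690 calls in Δvps13 and 2115 in Δvps21 against the wild type, and 1034 between the deletion strains. Library totals left 0 members higher in Δvps13 against the wild type and 1 lower in Δvps21 against Δvps13, and limma with either pseudocount left 2 lower in that last comparison. Over all genes library totals gave 1262 and 1086 calls in these 2 comparisons. In the last one limma gave 1296 with a pseudocount of 1 and 1280 with 0.1.

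Signs changed for uncalled differences near 0. By library totals, Δvps13 against the wild type became -0.11 for TRIREDRAFT_102378, -0.25 for TRIREDRAFT_104159, -0.15 for TRIREDRAFT_111216, -0.28 for TRIREDRAFT_111468, -0.25 for TRIREDRAFT_121276, -0.057 for TRIREDRAFT_122886, -0.066 for TRIREDRAFT_22910, -0.013 for TRIREDRAFT_73190, -0.078 for TRIREDRAFT_80881, -0.29 for hh2a, -0.37 for hh2b, -0.20 for hh4.2 and -0.10 for the Dna2 model, and Δvps21 against the wild type became -0.10 for TRIREDRAFT_103451, -0.089 for TRIREDRAFT_104159, -0.021 for TRIREDRAFT_120789, -0.040 for TRIREDRAFT_121276 and -0.13 for TRIREDRAFT_3779. For Δvps13 against the wild type, the filter of 10 CPM gave -0.0095 for TRIREDRAFT_111468, -0.051 for TRIREDRAFT_121276 and -0.062 for hh2b, and limma gave -0.049 for hh2b with either pseudocount and -0.068 for the Dna2 model with 0.1.

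Leaving out 1 library at a time, calls over all genes ran from 165 to 3233 in Δvps13 and from 1705 to 4236 in Δvps21 against the wild type, and from 514 to 2216 between Δvps21 and Δvps13. Members called ran from 0 to 7 higher and 0 to 5 lower in Δvps13, from 8 to 18 higher and 2 to 7 lower in Δvps21, and from 3 to 13 higher and 2 to 8 lower between them. Signs changed within these ranges for Δvps13 against the wild type: -0.12 to 0.36 for TRIREDRAFT_104159, -0.061 to 0.21 for TRIREDRAFT_111468, -0.21 to 0.059 for TRIREDRAFT_112231, -0.22 to 0.092 for TRIREDRAFT_120789, -0.030 to 0.079 for TRIREDRAFT_121276, -0.52 to 0.096 for TRIREDRAFT_55417, -0.54 to 0.16 for TRIREDRAFT_66486, -0.14 to 0.36 for TRIREDRAFT_73190, -0.18 to 0.16 for TRIREDRAFT_74804, -0.28 to 0.41 for hh2a, -0.27 to 0.31 for hh2b, -0.34 to 0.56 for the Dna2 model and -0.27 to 0.32 for TRIREDRAFT_3779. For Δvps21 against Δvps13 they did for TRIREDRAFT_104159 (-0.080 to 0.15), TRIREDRAFT_104790 (-0.14 to 0.63), TRIREDRAFT_22874 (-0.0064 to 0.37), TRIREDRAFT_22910 (-0.075 to 0.12), TRIREDRAFT_58851 (-0.13 to 0.27), TRIREDRAFT_80881 (-0.17 to 0.21) and TRIREDRAFT_3779 (-0.24 to 0.35). For Δvps21 against the wild type they did for TRIREDRAFT_103451 (-0.15 to 0.28), TRIREDRAFT_104159 (-0.089 to 0.39), TRIREDRAFT_119593 (-0.39 to 0.018), TRIREDRAFT_2095 (-0.31 to 0.050), TRIREDRAFT_57997 (-0.22 to 0.022) and TRIREDRAFT_3779 (-0.043 to 0.22).

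The labels give replicate numbers to all groups, and the main fit did not pair the samples by them. Same-numbered deviations correlated at 0.09 to 0.16 between Δvps13 and the wild type, where every Δvps13 library correlated best with its own number. They correlated at -0.05 to 0.11 between Δvps21 and the wild type. Between Δvps21 and Δvps13 the correlation was 0.51 for replicate 1, a best match, and -0.10 and -0.09 for replicates 2 and 3. With 3 libraries a group, these values cannot decide whether the numbers mark a pairing. With the replicate number as a block, members called were 1 higher and 3 lower in Δvps13 and 12 and 4 in Δvps21 against the wild type, and 10 and 2 between Δvps21 and Δvps13, among 807, 2879 and 1289 genes called; hh2b in Δvps13 was at -0.059. The block ended the call of cofactor B in Δvps21 against the wild type (adjusted p = 0.0647) and, between Δvps21 and Δvps13, those of TRIREDRAFT_5196 (0.0656), TRIREDRAFT_73190 (0.0671), the dynein heavy chain TRIREDRAFT_55417 (0.0583) and cofactor A (0.0572).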
